A study of Homo sapiens with 6 samples.

Results

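Vimentin and smooth-muscle type contractile genes were examined as 10 genes, VIM, ACTA2, TAGLN, CNN1, CNN2, CNN3, TPM1, TPM2, MYL9 and CALD1, each found by its symbol in 1 row of a table of 34811 genes. They were measured by RNA-seq in OVCAR-3, an established human ovarian carcinoma cell line that represents high-grade serous tumors. OV3/SCR cells carried a scrambled shRNA and OV3/COX1KD cells an shRNA against COX-1 (gene PTGS1) on the same pRS plasmid, and both were puromycin-selected stable transfectants grown in RPMI-1640 with serum. Each condition gave 3 libraries from independent passages of 1 clone, so the effect of the knockdown and the difference between clones cannot be told apart, and p-values describe the spread between passages. PTGS1 itself had 641 to 713 counts in OV3/SCR and 456 to 501 in OV3/COX1KD libraries, or 73.3% of the OV3/SCR level after scaling to library size. That is mRNA only. For this clone the study reported a robust loss of COX-1 protein by Western blot and a lower prostaglandin output from arachidonic acid.

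Vimentin is the type III intermediate filament protein of mesenchymal cells, and carcinoma cells that move toward a mesenchymal state often gain it beside or in place of keratins. Smooth muscle cells and myofibroblasts build contractile bundles from alpha-smooth muscle actin, tropomyosins, caldesmon, calponin, transgelin and myosin. Most of these proteins have relatives that serve the stress fibers of other cell types, and serum response factor (SRF) with its myocardin-type cofactors switches on many genes of both sets through a promoter element called the CArG box.

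In OV3/COX1KD cells 4 of the 10 genes fell, namely CALD1, CNN3, TPM1 and CNN2, and none rose, at a false discovery rate (FDR) under 0.01 in edgeR's quasi-likelihood test over all 17309 genes that passed the filter on low counts. Across all tested genes 47.9% changed by that rule, 22.1% lower and 25.8% higher. CNN1 did not pass the filter, and VIM, ACTA2, TAGLN, TPM2 and MYL9 were tested without passing the FDR threshold. The fall of CALD1 also exceeded the study's fold change limit of 2.5, a limit that 2.34% of tested genes passed downward and 1.58% upward. No tested member had a log2 fold change above 0, whatever its p, although MYL9 turned positive when certain libraries were left out, and DESeq2 gave the same count of 4 lower and 0 higher. In 5 of the 9 tested genes, TAGLN beside the 4 called, every OV3/COX1KD library was below every OV3/SCR library, which held for 30.7% of all tested genes, and in none was every one above (32.5% of all tested genes). The 9 tested genes had a median log2 fold change of -0.42, against -0.0087 for all tested genes. The summed level of the 10 genes, as CPM (counts scaled to library size with edgeR's TMM factors), lay between 644 and 648 in OV3/SCR and between 372 and 392 in OV3/COX1KD libraries. CALD1 alone made up 39.6 to 40.0% of that sum in OV3/SCR and 22.3 to 23.8% in OV3/COX1KD libraries.

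**Figure D1:**
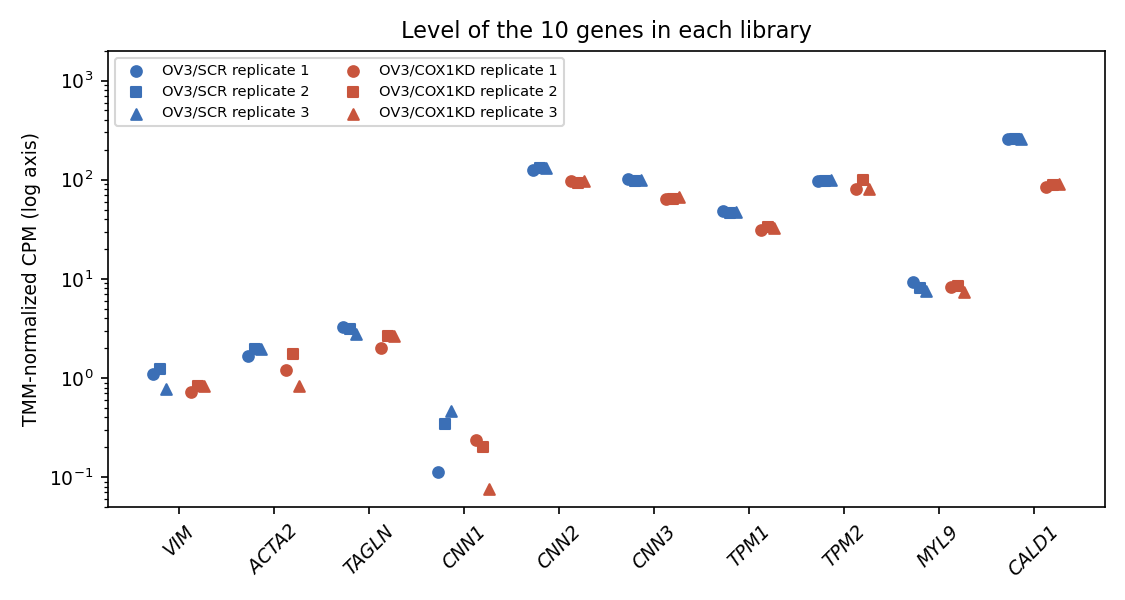
TMM-normalized CPM (log axis) of the 10 genes in each of the 6 libraries, with 1 point per library, shape for the replicate and color for the condition. VIM, ACTA2, TAGLN and CNN1 sit below 4 CPM in every library, and CALD1 falls from a mean of 257 to 87.6 CPM.

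The cells were of epithelial type by their markers. All 8 epithelial markers passed the filter, with KRT8, a simple epithelial keratin, counted between 38567 and 62802 times per library. In OV3/COX1KD 6 of the 8 rose and 2 fell, against 25.8% and 22.1% of all tested genes. The sum of the 8 was 5485 to 5554 CPM in OV3/SCR and 7045 to 7240 in OV3/COX1KD. MUC16 (the antigen CA125) and CDH1 (E-cadherin) rose by 1.36 and 0.85 on the log2 scale, while PAX8, a Mullerian lineage factor, fell by 0.76 and KRT7 by 0.14 (edgeR FDR = 4.43e-16, 5.88e-14, 4.29e-13 and 1.02e-04). Of the smooth muscle and pericyte markers, DES (muscle desmin) had at most 1 count in any library, ACTG2 (gamma smooth muscle actin) 1 to 6, LMOD1 (the actin nucleator leiomodin) 1 to 11, MYH11 (smooth muscle myosin heavy chain) 14 to 31 and RGS5 (a pericyte gene) 0 to 8. SYNPO2 (synaptopodin 2) had 10 to 19 in OV3/SCR and 3 to 6 in OV3/COX1KD, and MYOCD was not analysed here. LMOD1 likewise had 4 to 11 in OV3/SCR and 1 to 2 in OV3/COX1KD, with an edgeR FDR of 0.00194 with the filter lifted. The counts of DES, ACTG2, MYH11 and RGS5 overlapped between conditions. The summed level of these markers nevertheless lay between 14.8 and 16.5 CPM in OV3/SCR and between 38.2 and 40.9 in OV3/COX1KD. Most of that sum was CSPG4, a proteoglycan of pericytes and of some tumor cells, which was counted 335 to 364 times in OV3/SCR and 919 to 1053 times in OV3/COX1KD libraries.

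For the fibroblast list, 4 of 9 markers were tested and the sum was 12.8 to 13.7 CPM in OV3/SCR and 8.71 to 9.62 in OV3/COX1KD, with LUM and COL3A1 at 0 in every OV3/SCR library. Of the 4 tested, 1 marker fell, COL1A1, and none rose, against 22.1% and 25.8% of all tested genes. COL1A1 had 258 to 270 counts in OV3/SCR and 143 to 160 in OV3/COX1KD. The endothelial sum was 2.57 to 3.30 CPM in OV3/SCR and 2.95 to 3.64 in OV3/COX1KD, and the leukocyte sum 1.01 to 1.23 and 0.526 to 0.998. In the mesothelial list all 3 tested genes, MSLN, WT1 and UPK3B, rose, against 25.8% of all tested genes. CALB2 was not tested, and the sum was 289 to 298 CPM in OV3/SCR and 486 to 489 in OV3/COX1KD. MSLN and WT1 are also made by serous tumor cells. In these bulk libraries fewer cells of a type and less RNA per cell cannot be told apart, and the part of these marker shifts in the results was not tested.

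VIM (ENSG00000026025, chr10:17270240-17279592 in GRCh37, plus strand) was almost silent in both clones. It had 29, 32 and 20 counts in OV3/SCR replicates 1 to 3, and 18, 21 and 22 in OV3/COX1KD replicates 1 to 3, out of library totals between 25291505 and 27391538. The ranges of the conditions overlapped. The log2 fold change was -0.38 (95% interval -0.91 to 0.16, edgeR FDR = 0.220), and that interval holds both no change and a fall to -0.91.

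Per kilobase of merged exons, VIM stood at 0.199 ± 0.0450 CPM per kb (SD, n = 3) in OV3/SCR and 0.153 ± 0.0131 in OV3/COX1KD. KRT18, the partner of keratin 8 in simple epithelia, stood at 149.7 CPM per kb in OV3/SCR. Within the summed length-scaled level of VIM, KRT7, KRT8, KRT18 and KRT19, the share of VIM was 0.0144 to 0.0234% in OV3/SCR and 0.0102 to 0.0121% in OV3/COX1KD libraries. Of the keratins in the denominator of that share, KRT8, KRT18 and KRT19 rose in OV3/COX1KD, with log2 fold changes of 0.65, 0.75 and 0.32 (edgeR FDR = 7.12e-14, 6.08e-14 and 1.41e-08), and KRT7 fell as given above. VIM-AS1, an antisense RNA whose exons cover 12.7% of the exon length of VIM, had 34, 55 and 43 counts in OV3/SCR and 32, 21 and 21 in OV3/COX1KD, a log2 fold change of -0.80 (edgeR FDR = 0.00926). It was named after its values were seen, and without strand its reads and those of VIM cannot be told apart where they overlap.

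ACTA2 (ENSG00000107796, chr10:90694831-90751096, minus strand) encodes alpha-smooth muscle actin, the actin of vascular smooth muscle and myofibroblasts. Its counts were 44, 51 and 51 in OV3/SCR and 30, 44 and 22 in OV3/COX1KD libraries. OV3/COX1KD replicate 2 reached the lowest OV3/SCR count, and by CPM it stood at 1.76 against a lowest OV3/SCR value of 1.65, so the conditions overlapped. The log2 fold change of -0.57 (standard error 0.23, 95% interval -1.06 to -0.084, edgeR FDR = 0.0416) did not pass the threshold. Without OV3/COX1KD replicate 2 it was -0.88 (edgeR FDR = 0.00137), and without OV3/COX1KD replicate 3 it was -0.33 (edgeR FDR = 0.235). Exons of FAS and of the antisense RNA ACTA2-AS1, both on the opposite strand, cover 6.75% and 29.1% of the exon length of ACTA2. FAS, named after its values were seen, had 378 to 465 counts and fell by 0.22 on the log2 scale (edgeR FDR = 0.00685), ACTA2-AS1 had 1 to 4 counts, and shared reads cannot be told apart without strand.

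Nearly all actin mRNA came from the cytoplasmic genes. By length-scaled level ACTB made up 67.5% of the 6 actin genes in every OV3/SCR library and 70.2 to 70.5% in OV3/COX1KD, and ACTG1 32.45 to 32.48% and 29.45 to 29.78%. ACTA2 made up 0.0290 to 0.0339% in OV3/SCR and 0.0165 to 0.0354% in OV3/COX1KD libraries. Both cytoplasmic actins fell, ACTB by 0.14 and ACTG1 by 0.33 on the log2 scale (edgeR FDR = 1.20e-04 and 1.99e-09). Relative to ACTB within the same library, ACTA2 differed by -0.48 on the log2 scale between conditions (exact two-sided permutation p = 0.4), and relative to ACTG1 by -0.29 (p = 0.6 in the same exact test).

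TAGLN (ENSG00000149591, chr11:117070086-117078180, plus strand) encodes transgelin, an actin-bundling relative of the calponins. It had 88, 81 and 71 counts in OV3/SCR and 50, 66 and 71 in OV3/COX1KD libraries. By CPM every OV3/COX1KD library was below every OV3/SCR library, between 1.99 and 2.67 against 2.75 and 3.30. The log2 fold change of -0.33 (standard error 0.16, 95% interval -0.66 to 0.0023, edgeR FDR = 0.0820) did not pass the threshold. PCSK7, a proprotein convertase gene on the opposite strand that was named after its values were seen, covers 34.1% of the exon length of TAGLN and fell by 0.72 on the log2 scale (edgeR FDR = 1.72e-09), and without strand their shared reads cannot be told apart.

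CNN1 (ENSG00000130176, chr19:11649582-11661138, plus strand), the calponin of differentiated smooth muscle, had 3, 9 and 12 counts in OV3/SCR and 6, 5 and 2 in OV3/COX1KD libraries. These counts overlapped and lay near the floor of 3 counts taken as detectable. With the filter lifted, CNN1 had an edgeR FDR of 0.301.

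CNN2 and CNN3, the calponins that bind stress fibers in non-muscle cells, were abundant. CNN2 (ENSG00000064666, chr19:1026585-1039067, plus strand) had 3338, 3432 and 3377 counts in OV3/SCR and 2470, 2338 and 2611 in OV3/COX1KD libraries. CNN3 (ENSG00000117519, chr1:95362505-95392779, minus strand) had 2715, 2541 and 2578 in OV3/SCR and 1621, 1605 and 1784 in OV3/COX1KD. The conditions were separate for both genes, with every OV3/COX1KD library below every OV3/SCR library.

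CNN2 went from 129 ± 3.48 to 96.5 ± 2.76 CPM (SD, 3 libraries each), which is -0.42 on the log2 scale (standard error 0.035, edgeR FDR = 3.35e-09). CNN3 went from 99.7 ± 2.17 to 65.1 ± 1.59 CPM, which is -0.61 on the log2 scale (standard error 0.036, edgeR FDR = 2.05e-11). The pseudogenes CNN2P1, CNN2P9 and CNN2P12 had 0 to 5 counts, and reads that fit CNN2 and a copy equally well are uncertain.

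CNN2 and CNN3 stood at nearly equal length-scaled levels in OV3/SCR, 35.5 ± 0.955 and 35.8 ± 0.780 CPM per kb (SD, n = 3). CNN3 relative to CNN2 gave within-library log2 ratios of 0.089, -0.046 and -0.0021 in OV3/SCR and -0.22, -0.16 and -0.16 in OV3/COX1KD. Every OV3/COX1KD ratio was below every OV3/SCR ratio, and the difference of -0.19 had an exact two-sided permutation p of 0.1, the smallest that 3 against 3 libraries allow, and 0.3 after Benjamini-Hochberg adjustment over 6 gene pairs. CNN1 held 0.0558 to 0.228% of calponin mRNA by length-scaled level in OV3/SCR and 0.0519 to 0.167% in OV3/COX1KD. The ratio of CNN1 to CNN2 differed by -0.29 (exact permutation p = 0.5) and that of CNN1 to CNN3 by -0.093 (exact permutation p = 0.8), both on the log2 scale.

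The CArG box (CC, then 6 bases that are A or T, then GG, a pattern that reads the same on both strands) was searched in the 250 bases before each start site of a RefSeq table for GRCh38.p14. The table held 14 windows for 8 of the 10 genes, all but TAGLN and MYL9, and each window was placed in GRCh37 by an exact match. Exactly 1 of the 14 windows held the box, that of CNN2, and 407 of all 35116 windows, 1.16%, did. With 1 inner base allowed to be C or G, 3 of the 14 windows (1 each of CNN2, ACTA2 and CALD1) held it, and 7.04% of all windows did. The CALD1 window with this match, chr7:134396001-134396250, lay upstream of the annotated span of the gene, which starts at 134429003. The CALD1 windows inside that span and the other ACTA2 window held no match. CNN2 and ACTA2 are printed because they set an abundant gene that fell beside a muscle-type gene of low level, with the boxes in capitals, exact in CNN2 and with 1 inner C or G in ACTA2:
CNN2 (GRCh37 chr19:1026357-1026606, plus strand): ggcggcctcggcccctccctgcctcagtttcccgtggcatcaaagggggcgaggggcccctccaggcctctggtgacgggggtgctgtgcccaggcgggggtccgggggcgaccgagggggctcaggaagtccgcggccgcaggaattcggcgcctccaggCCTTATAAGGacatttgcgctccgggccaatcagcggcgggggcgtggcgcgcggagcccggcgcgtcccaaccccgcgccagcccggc
ACTA2 (GRCh37 chr10:90712531-90712780, minus strand): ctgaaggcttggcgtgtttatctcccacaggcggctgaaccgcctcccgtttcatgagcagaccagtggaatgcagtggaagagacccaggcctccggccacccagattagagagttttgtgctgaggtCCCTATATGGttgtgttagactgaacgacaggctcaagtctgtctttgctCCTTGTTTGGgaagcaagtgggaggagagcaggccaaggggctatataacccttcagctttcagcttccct
The box of CNN2 began 89 bases before the start site, and those of ACTA2 began 121 and 71 bases before it. CNN3, TPM1 and CALD1 fell as well, and their windows held no exact box. These matches describe letters in a window, and binding was not measured.

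TPM1 and TPM2 encode tropomyosins, coiled coils that lie along the actin filament and set which myosins and binding proteins reach it. TPM1 (ENSG00000140416, chr15:63334819-63364114, plus strand) had 1302, 1194 and 1219 counts in OV3/SCR and 783, 830 and 878 in OV3/COX1KD libraries. The conditions were separate, with means of 47.3 ± 1.52 and 32.4 ± 1.12 CPM (SD, 3 libraries each). The log2 fold change was -0.55 (standard error 0.046, edgeR FDR = 4.74e-09), a remaining level of 68.5%.

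TPM2 (ENSG00000198467, chr9:35681989-35690053, minus strand) had 2605, 2521 and 2569 counts in OV3/SCR and 2041, 2515 and 2123 in OV3/COX1KD libraries. OV3/COX1KD replicate 2, at 100.4 CPM, was above every OV3/SCR library, while replicates 1 and 3, at 81.1 and 79.7 CPM, were below all of them. The log2 fold change of -0.17 (standard error 0.059, 95% interval -0.30 to -0.047, edgeR FDR = 0.0188) did not pass the threshold. Without OV3/COX1KD replicate 2 it was -0.28 (edgeR FDR = 6.13e-11), without replicate 1 or 3 of that condition -0.12 and -0.11 (edgeR FDR = 0.105 and 0.129), and with DESeq2 the FDR was 0.153. Over the 10 genes, 6 rather than 4 were called lower without OV3/COX1KD replicate 2, the added ones being ACTA2 and TPM2. Calls also grew over all genes without that library, to 4137 lower and 4852 higher of 17859 tested. With all libraries 3820 were lower and 4473 higher of 17309.

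That library stood apart from its own condition more widely. The chi-square of its counts against the other OV3/COX1KD libraries, divided by the degrees of freedom, was 4.81 and 6.28, compared with 1.82 to 3.18 for all other pairs of the same condition. Over genes whose mean log2 CPM reached 1, it lay 0.023 above the mean of its companions in the third of genes with the shortest transcripts and 0.050 below in the third with the longest, as medians on the log2 scale. TPM2 has a longest transcript of 1580 bases. The part of these shifts in the value of TPM2 was not tested.

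By length-scaled level TPM2 was the largest of the 4 tropomyosin genes in every library, at 43.62 to 44.01% of their sum in OV3/SCR and 42.4 to 48.3% in OV3/COX1KD, and TPM1 the smallest, at 4.50 to 4.72% and 3.45 to 3.80%. The merged exons of TPM1 come from 39 annotated transcripts and span 14700 bases, against 3957 for its longest transcript, which lowers its value on this scale. Without scaling to length the order differed, with TPM3 at 298.6 and TPM4 at 203.8 CPM in OV3/SCR against 97.95 for TPM2. The first place of TPM2 thus rests on the merged exon lengths. The within-library log2 ratio of TPM1 to TPM2 was -3.21, -3.29 and -3.28 in OV3/SCR and -3.59, -3.81 and -3.48 in OV3/COX1KD. The ratio was lower in every OV3/COX1KD library, and the difference of -0.37 reached the smallest exact permutation p of 0.1, or 0.3 after adjustment over the 6 pairs.

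MYL9 (ENSG00000101335, chr20:35169900-35179850, plus strand) encodes a regulatory myosin light chain whose phosphorylation starts contraction. It had 245, 210 and 193 counts in OV3/SCR and 209, 212 and 196 in OV3/COX1KD libraries, and the ranges overlapped. The log2 fold change was -0.038 (95% interval -0.24 to 0.17, edgeR FDR = 0.757). It was 0.051 without OV3/SCR replicate 1 and 0.025 without OV3/COX1KD replicate 3 (edgeR FDR = 0.707 and 0.857). Per length MYL9 stood at 2.93 CPM per kb in OV3/SCR, below its non-muscle relatives MYL12A at 79.5 and MYL12B at 174.9.

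CALD1 (ENSG00000122786, chr7:134429003-134655480, plus strand) encodes caldesmon, which binds actin, tropomyosin and myosin and holds back actomyosin ATPase. It was the most counted of the 10 genes in OV3/SCR, with 6903, 6698 and 6623 counts, and had 2139, 2194 and 2406 in OV3/COX1KD libraries. The lowest OV3/SCR library was far above the highest OV3/COX1KD library, at 256 against 90.3 CPM. The level went from 257 ± 1.41 to 87.6 ± 2.66 CPM (SD, 3 libraries each), which is -1.55 on the log2 scale (standard error 0.032, edgeR FDR = 5.12e-18), or 2.94-fold lower. Among all tested genes 265, or 1.53%, had a lower log2 fold change. Smooth muscle and non-muscle cells use different caldesmon isoforms, and counts per gene do not part its 24 annotated transcripts.

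Over the 6 libraries, log2 CPM of CALD1 ran most closely with EPB41L2, NOP14 and METTL17 (Pearson r = 0.9999, 0.9998 and 0.9998), whose own log2 fold changes were -0.55, -0.38 and -0.52. In all 519 of 12932 genes had r above 0.99 with CALD1, and all these libraries come from 2 clones, so such r values describe the gap between the clones. VIM ran most closely with TPRKB, LETM2 and PGS1 (r = 0.983, 0.977 and 0.977 over the same 6 libraries), and no gene had r above 0.99 with it. These were the highest r values among 12932 genes, for a gene with 18 to 32 counts per library. TPRKB, LETM2 and PGS1 had log2 fold changes of -0.040, -0.38 and -0.087. Whether their likeness to VIM exceeds counting noise was not tested.

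**Figure D2:**
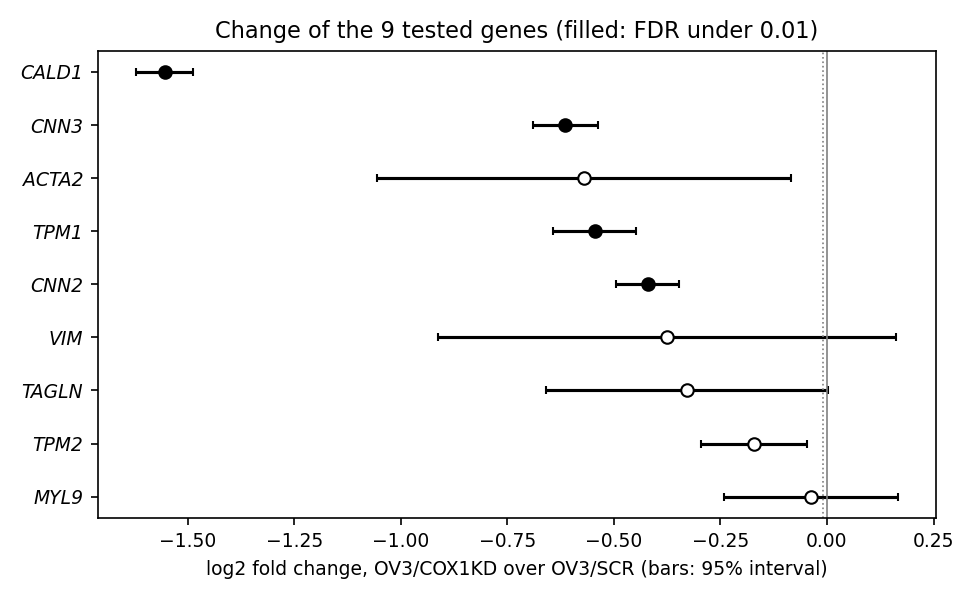
Log2 fold change of OV3/COX1KD over OV3/SCR for the 9 tested genes with 95% intervals, filled points for an FDR under 0.01 and a dotted line at the median of all tested genes. CALD1 lies at -1.55, apart from CNN3, TPM1 and CNN2 between -0.61 and -0.42, and the intervals of VIM, TAGLN and MYL9 reach past 0.

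In OV3/SCR the order per length was CNN3 and CNN2 near 36 CPM per kb, TPM2 at 30.8, CALD1 at 26.3, TPM1 at 3.22, MYL9 at 2.93, TAGLN at 0.466, ACTA2 at 0.331, VIM at 0.199 and CNN1 at 0.108. CNN3 and CNN2 did not differ beyond their spread, and neither did TPM1 and MYL9, whose SDs were 0.103 and 0.312. With each gene's longest transcript in place of its merged exons the first 4 were TPM2 at 62.0, CNN2 at 57.0, CALD1 at 51.4 and CNN3 at 50.1 CPM per kb, and TPM1, at 11.9, stood well above MYL9, at 2.96. In OV3/COX1KD CALD1 stood at 8.95 ± 0.272 (SD, n = 3), CNN2 at 26.5 ± 0.757 and CNN3 at 23.4 ± 0.571 CPM per kb of merged exons.

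**Figure D3:**
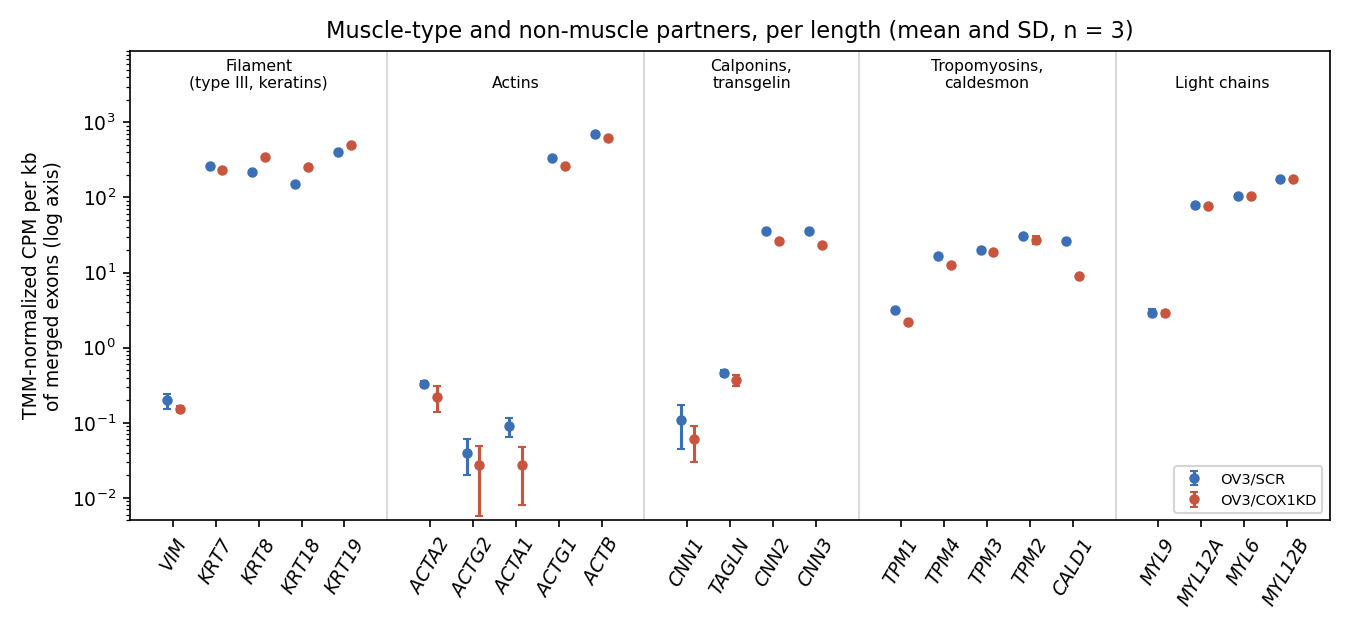
Length-scaled level (CPM per kb of merged exons, log axis, mean and SD of 3 libraries) of the muscle-type genes and their non-muscle relatives, by family, with OV3/SCR in blue and OV3/COX1KD in red. VIM, ACTA2 and CNN1 sit near or below 0.331 while keratins, cytoplasmic actins and CNN2 and CNN3 sit above 20.

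Of 9 listed genes, SRF and its partners, 8 were tested, 4 fell and 2 rose, against 22.1% and 25.8% of all tested genes. SRF itself had 983 to 1129 counts in OV3/SCR and 881 to 962 in OV3/COX1KD (log2 fold change -0.20, edgeR FDR = 0.00202), and its cofactor MKL1 (MRTF-A) fell by 0.20 (edgeR FDR = 9.45e-04). Both calls depend on single libraries. SRF had an edgeR FDR of 0.0105 when OV3/SCR replicate 1 was left out, 0.0240 when replicate 2 was, and 0.0101 when OV3/COX1KD replicate 1 was, and without OV3/SCR replicate 2 MKL1 had 0.0113. ELK4, an ETS-type partner of SRF, fell by 0.29 and FHL2, a LIM protein that is an SRF target and cofactor, by 0.37 (edgeR FDR = 1.60e-06 and 5.84e-07). ELK3 and ELK1, further ETS-type partners, rose by 0.73 and 0.23 on the log2 scale (edgeR FDR = 2.30e-07 and 0.00225), and ELK1 did not pass with scaling to total counts (edgeR FDR = 0.0341) or when any of OV3/SCR replicates 2 and 3 and OV3/COX1KD replicate 1 was left out (0.0128 to 0.0201). MKL2, at 0.17 (edgeR FDR = 0.0235), and SCAI, an inhibitor of MKL1, at 0.13 (edgeR FDR = 0.113), did not pass. MKL2 passed without the filter (edgeR FDR = 8.83e-04) and without OV3/COX1KD replicate 2 (1.11e-05).

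Among 18 other smooth muscle genes, 13 were tested, 7 fell and 1 rose, against 22.1% and 25.8% of all tested genes. The list's median log2 fold change was -0.53. SYNM, the intermediate filament protein synemin, fell by 0.98 on the log2 scale (edgeR FDR = 3.02e-09). SYNPO2 had a log2 fold change of -1.70 on 10 to 19 counts in OV3/SCR and 3 to 6 in OV3/COX1KD (edgeR FDR = 0.00200), and without OV3/SCR replicate 3 its edgeR FDR was 0.0175 and with DESeq2 0.0117. PPP1R14A, an inhibitor of myosin phosphatase, rose by 0.37 (edgeR FDR = 5.65e-04). MYLK, the kinase that phosphorylates MYL9 and named here after its values were seen, fell by 0.61, from 2100 to 2187 counts in OV3/SCR to 1258 to 1512 in OV3/COX1KD (edgeR FDR = 4.73e-10). MYH11, the muscle myosin, was at -0.33 (edgeR FDR = 0.362).

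The other actins, tropomyosins and tropomodulins had 7 tested genes of 9. At an edgeR FDR under 0.01, 5 fell and none rose, against 22.1% and 25.8% of all tested genes, with a list median of -0.33. TMOD2 and TMOD1, which cap the pointed end of tropomyosin-coated filaments, fell by 0.98 and 0.40 (edgeR FDR = 2.35e-09 and 2.16e-04), and TPM4 fell by 0.38 (edgeR FDR = 2.48e-09). At an unadjusted p under 0.05, and with DESeq2, the number that rose was also 0, and it was 1 without OV3/COX1KD replicate 2.

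All 17 genes of non-muscle myosin II and its control were tested. In this list 8 fell and 3 rose, against 22.1% and 25.8% of all tested genes. PPP1R12C, a myosin phosphatase subunit, fell by 0.68 and DAPK3, a kinase of myosin light chains, by 0.62 (edgeR FDR = 3.37e-11 and 3.64e-08). MYL6B, an essential light chain, rose by 0.44 on the log2 scale (edgeR FDR = 1.61e-08). The list's median was -0.10.

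Among 18 actin crosslinkers and anchors, 17 were tested, 8 fell and 5 rose, against 22.1% and 25.8% of all tested genes. The median of the list was -0.062. PALLD, the stress fiber scaffold palladin, had 3774 to 3887 counts in OV3/SCR and 1245 to 1337 in OV3/COX1KD, a log2 fold change of -1.53 that was close to that of CALD1 (standard error 0.035, edgeR FDR = 1.77e-17). ZYX, the tension-sensitive focal adhesion protein zyxin, fell by 1.12 and TGFB1I1 (Hic-5) by 0.86 (edgeR FDR = 3.83e-15 and 2.14e-05). TLN1 and TLN2, the talins that link integrins to actin, rose by 0.70 and 0.53 and TNS3, a tensin, by 0.69 on the log2 scale (edgeR FDR = 8.38e-11, 1.06e-05 and 1.16e-11). The 3 largest falls of this list were thus a stress fiber scaffold and 2 LIM proteins, and the 3 largest rises were talins and a tensin.

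Of 13 other non-keratin intermediate filament genes 8 were tested, 3 fell and 2 rose, against 22.1% and 25.8% of all tested genes. INA, the neuronal filament internexin, fell by 1.08, SYNM by 0.98 as given above and LMNA, the lamin A/C gene, by 0.45 (edgeR FDR = 1.83e-09, 3.02e-09 and 4.42e-11). LMNB1, the lamin B1 gene, rose by 0.23 (edgeR FDR = 1.26e-06). PRPH (peripherin), a type III relative of vimentin, had 15 to 28 counts in OV3/SCR and 35 to 43 in OV3/COX1KD, a log2 fold change of 0.89 (edgeR FDR = 0.00382). Its FDR was 0.0287 without OV3/SCR replicate 2, 0.0123 without OV3/SCR replicate 1 and 0.0118 without OV3/COX1KD replicate 3, all by edgeR, and 0.0136 with DESeq2.

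**Figure D4:**
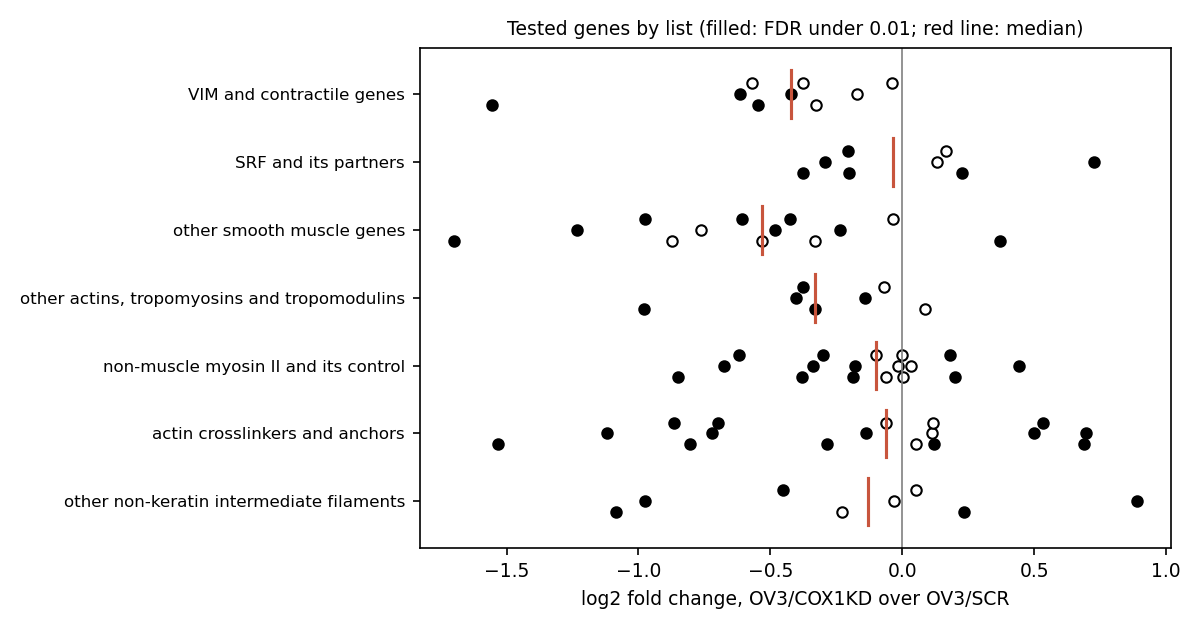
Log2 fold change of OV3/COX1KD over OV3/SCR for each tested gene, by list, with filled points for an FDR under 0.01 and a red line at the list's median. VIM and the contractile genes have a median of -0.42 and no filled point above 0, other smooth muscle genes -0.53, and the crosslinkers and anchors spread from -1.53 to 0.70.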

How the data were processed

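RNA-seq libraries of 3 OV3/SCR and 3 OV3/COX1KD passages were analysed. The authors aligned reads to hg19 (GRCh37) with TopHat2 (2.0 in the submitters' processing notes) and obtained gene counts from HTSeq, which were deposited unnormalized. The annotation and the strand setting are not given in the sources used here. Library totals were 25291505 to 27391538, so the floor of 3 counts equals 0.110 to 0.119 CPM, for counting error only, since PCR reads are not independent molecules.

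Tests used edgeR 4.0.16 in R 4.3.3 (TMM, filterByExpr, glmQLFit and glmQLFTest, Benjamini-Hochberg over 17309 genes), with condition as the only factor. A standard error is the log2 fold change divided by the root of F, and 95% intervals use the total degrees of freedom. The scripts were tested on simulated data. Positions and lengths came from GENCODE 44 lifted to GRCh37, matched by Ensembl ID for 33556 of 34811 genes. Pairs of gene ratios added 0.5 to each count and used an exact permutation test.

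The members and lists were chosen with earlier results of these data known. Named genes are the 10 genes, PTGS1, every SRF partner, and per other list the 3 largest rises and falls among called genes plus defining markers, and the 3 genes of highest Pearson r with VIM and CALD1. Some genes this rule names are not reported here. Alternatives were RLE factors, total counts, no filter, DESeq2 1.42.0, a minimum of 10 counts in each library, the replicate block, leaving out each library, glmTreat against a fold change of 2.5, a pseudocount of 1 and the longest transcript.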

Additional observations from a re-analysis of the deposited data

How the results depend on the processing

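CALD1, CNN3, TPM1 and CNN2 stayed lower at an edgeR or DESeq2 FDR under 0.01 under all settings tried except glmTreat, which tests for a fold change above 2.5 and left 1 of the 10 genes, CALD1. TPM2 passed with total counts, without the filter and with the replicate block (log2 fold change -0.18, FDR = 0.00712), so that 5 genes were lower with the block. Same-numbered libraries deviated together with correlations of only 0.0045 to 0.042, so the numbers were not taken as pairs. The block changed no other call among the 10 genes, and MKL2 passed with it (FDR = 0.00816), for 3 higher SRF partners. TPM2 did not pass with DESeq2, RLE factors or a minimum of 10 counts.

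With at least 10 counts in every library 228 genes were lower and 172 higher past a fold change of 2.5, and glmTreat left 130 and 82, against 405 and 274. Total counts gave 5 lower filament genes and 1 higher SRF partner, and DESeq2 1 higher filament gene. Over all genes total counts gave 4978 lower and 3466 higher, against 3820 and 4473 in the main fit. The median log2 fold change of all genes was -0.087 with total counts and -0.0087 in the main fit. DESeq2 gave 3252 lower and 3891 higher genes, and the replicate block 3796 and 4437. Fits without a single library gave 3161 to 4137 lower and 3963 to 4852 higher genes. Leaving out each library gave 2 to 4 lower and 1 to 3 higher SRF partners, 1 to 3 higher filament genes and 0 to 1 higher actin, tropomyosin or tropomodulin genes. It moved the CNN1/CNN2 difference between -0.82 and 0.17 (0.087 without OV3/SCR replicate 3) and CNN1/CNN3 between -0.67 and 0.37 (0.10 and 0.29 without OV3/SCR replicates 2 and 3), and the CALD1 level between 26.02 and 26.45 CPM per kb. The longest transcript put VIM at 0.386, ACTA2 at 0.658, TAGLN at 0.806, TPM1 at 11.9, CNN3 at 50.1, CALD1 at 51.4, CNN2 at 57.0 and TPM2 at 62.0 CPM per kb. Total counts put CALD1 at 27.0, TPM2 at 31.6, CNN2 at 36.5 and CNN3 at 36.8 CPM per kb. The cause of these shifts was not tested.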
